A study of Mus musculus with 9 samples.

Results

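The Hox genes described here are the 39 protein-coding homeobox genes of the 4 mouse clusters, taken by their symbols from 49671 gene rows: 11 in HoxA, 10 in HoxB, 9 in HoxC and 9 in HoxD. They were measured by RNA sequencing in skin cells sorted as CD45-negative, which removes leukocytes, and CD49f-positive, the integrin alpha-6 chain that basal keratinocytes and several other skin cells carry. Of the 9 samples, 5 had the Flg genotype wt/wt and 4 the genotype ko/ko, and no sample had a stated treatment. Flg encodes filaggrin, a protein of the cornified layer. The sources used here give no strain, age or body site of the animals, and no account of how the ko allele was made, so no Hox value below can be assigned to a body site.

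Hox genes encode transcription factors that give cells their position along the body axis. Within a cluster the genes lie in the order in which they act: low paralog numbers serve the hindbrain and pharyngeal arches, middle numbers the trunk, and high numbers the lumbar to caudal trunk and the distal limb. Hox proteins bind DNA together with partners of the Pbx, Meis and Prep families, Polycomb and Trithorax proteins keep their genes off or on, and retinoic acid sets them early in the embryo. Adult skin fibroblasts are known to keep a Hox pattern that reflects their site of origin, and Hoxc13 has a separate role in the growing hair shaft.

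Each library held between 15601859 and 23200440 counts, so that 1 count equalled 0.0452 to 0.0575 CPM, the count scaled to TMM-adjusted library size, and a count of 0 allowed up to 0.136 to 0.173 CPM (3 counts). For Flg itself, wt/wt replicates 1 to 5 gave 0, 0, 6, 2 and 4 counts and ko/ko replicates 1 to 4 gave 2, 0, 0 and 4, too few to check the genotype labels. The defining markers went against a purely epidermal sample: the fibroblast proteoglycan gene Dcn lay at 5210 to 10500 CPM per kilobase of exon (kb) and the basal keratin gene Krt14 at 487 to 1040 CPM per kb. The sort markers Itga6 (CD49f) and Ptprc (CD45) were present and low respectively, and both had higher ranges in ko/ko. Itga6 lay at 43.4 to 66.2 CPM in wt/wt and 63.8 to 96.9 CPM in ko/ko. Ptprc lay at 0.0508 to 0.862 CPM in wt/wt and 0.908 to 7.14 CPM in ko/ko. The part of this difference in the Hox values was not tested. Ko/ko replicate 1 and wt/wt replicates 1 and 2 are named together below because of their low Hoxa2 values. They also had the 3 lowest summed levels of 12 fibroblast markers, at 35920, 33610 and 27650 CPM. Ko/ko replicate 3 followed at 43100 CPM, and the rest had 58090 to 64290 CPM. This sum alone does not set the 3 libraries apart, since ko/ko replicate 3 lay nearer to them than to the rest. Hox results that rest on these 3 libraries are given with and without them.

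Hox transcripts were scarce, and most of them came from 2 short stretches, the 3' end of HoxA and the middle of HoxD. All 39 genes together had 422 to 681 counts per library, or 24.2 to 32.7 CPM. The 6 genes Hoxa2, Hoxa3, Hoxd8, Hoxd9, Hoxd10 and Hoxc13 held 82.8% of the 4920 Hox counts, and the other 33 genes shared 847 counts. No Hox gene was at 0 in all 9 libraries, but 12 never exceeded 3 counts in any library. On average over the libraries HoxD held 44.2% and HoxA 43.0% of the Hox counts, HoxC 8.68% and HoxB 4.12%. The order of the first pair rests on few libraries: HoxA held more counts than HoxD in 6 of 9 libraries, and fewer in ko/ko replicate 1 and wt/wt replicates 1 and 2, where HoxA took 21.3% to 25.8% and HoxD 51.2% to 57.4%. Without these 3 libraries HoxA held 53.0%, HoxD 39.1%, HoxC 4.92% and HoxB 3.00%. In bulk samples such as these, fewer cells that transcribe a gene and less RNA of it per cell cannot be told apart.

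Scaled by exon length, Hoxa2 was the highest Hox gene, at 4.87 ± 2.50 CPM per kb (n = 9, SD). Next came 3 adjacent genes of HoxD, with Hoxd10 at 2.19 ± 1.17, Hoxd9 at 1.57 ± 0.579 and Hoxd8 at 1.48 ± 0.482 CPM per kb (n = 9, SD). Hoxd10, Hoxd9 and Hoxd8 did not differ from one another beyond the spread over libraries. Hoxc13 was lower, at 0.578 ± 0.602 CPM per kb (n = 9, SD). Hoxa7 and Hoxa3 were lower again, at 0.129 and 0.1035 CPM per kb. A mean of at least 1 CPM per kb was reached by 4 genes, a mean of at least 0.5 by 6 and a mean of at least 2 by 2.

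**Figure D1:**
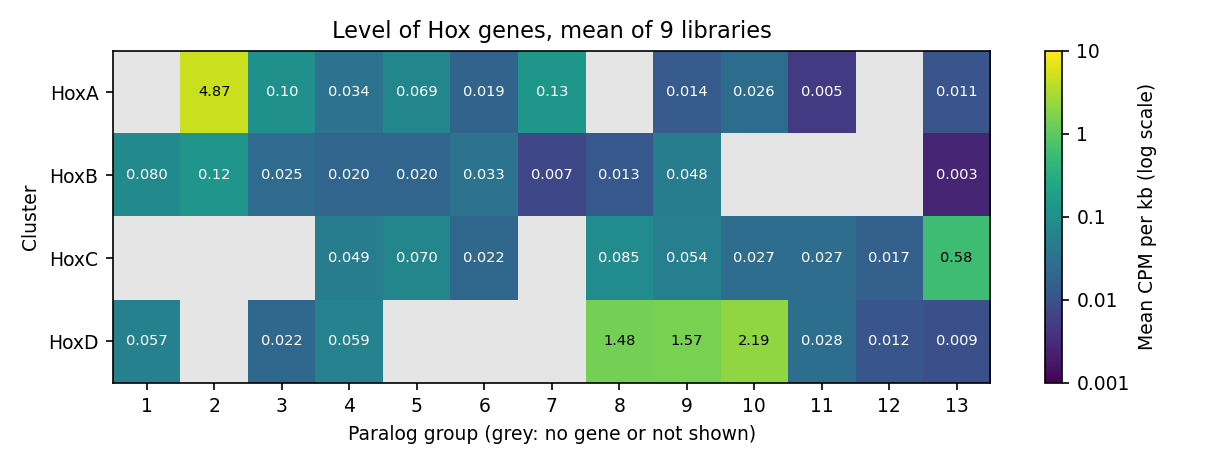
Mean level of Hox genes over the 9 libraries, in CPM per kb on a log colour scale, by cluster (rows) and paralog group (columns), with the value written in each cell and grey where a cluster has no such gene or none is shown. The high cells are Hoxa2, Hoxd8 to Hoxd10, and Hoxc13 alone at the end of HoxC.

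The promoters of Hoxa2, Hoxd8 and Hoxd10 are shown because these genes carry most of the pattern. As described below, Hoxd10 was also highest in the 3 libraries where Hoxa2 was lowest. Each is the 250 bases before the transcription start in RefSeq on GRCm38.p6, 5' to 3' on the gene's strand. Capitals mark the composite Hox-Pbx motif TGATNNAT and the Meis and Prep motif TGACAG, searched on both strands, which do not overlap each other here. The Hoxa2 window is chr6:52164832-52165081 on the minus strand, the Hoxd8 window chr2:74704365-74704614 and the Hoxd10 window chr2:74691641-74691890, both on the plus strand.
Hoxa2: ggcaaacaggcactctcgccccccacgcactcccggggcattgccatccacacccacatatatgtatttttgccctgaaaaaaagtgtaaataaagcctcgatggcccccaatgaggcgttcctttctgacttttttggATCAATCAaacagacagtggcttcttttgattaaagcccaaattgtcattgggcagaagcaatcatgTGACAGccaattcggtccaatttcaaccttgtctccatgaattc
Hoxd8: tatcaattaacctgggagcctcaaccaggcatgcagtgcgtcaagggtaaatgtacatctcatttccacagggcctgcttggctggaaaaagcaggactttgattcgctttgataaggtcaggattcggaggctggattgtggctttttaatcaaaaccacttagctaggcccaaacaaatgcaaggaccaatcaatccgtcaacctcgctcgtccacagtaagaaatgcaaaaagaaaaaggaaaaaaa
Hoxd10: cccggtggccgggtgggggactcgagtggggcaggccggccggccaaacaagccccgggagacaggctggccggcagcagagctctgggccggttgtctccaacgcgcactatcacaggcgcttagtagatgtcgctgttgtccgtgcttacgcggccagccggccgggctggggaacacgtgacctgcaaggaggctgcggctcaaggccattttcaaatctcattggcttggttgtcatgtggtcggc

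The Hoxa2 window held both motifs, the Hox-Pbx motif on the reverse strand 111 bases and the Meis and Prep motif 44 bases before the start, and the Hoxd8 and Hoxd10 windows held neither. Among 32851 mouse promoters of the same length, 7.68% held the Hox-Pbx motif and 15.9% the Meis and Prep motif. The base composition also differed, with 46.4% G and C in the Hoxa2 window, 44.4% in that of Hoxd8 and 65.6% in that of Hoxd10, beside a median of 52.4% over all promoters. The table matched 22 of the 39 Hox genes, and Hoxc13 was not among them. The Hox-Pbx motif was also in windows of Hoxb1, Hoxb8 and Hoxd11, which had at most 7, 2 and 5 counts in a library. The Meis and Prep motif was also in the Hoxa3 window, and the Hoxd9 window held neither. These matches describe letters in 1 window and say nothing of binding.

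In HoxA, the 3' end was transcribed and the rest was close to the counting limit. Hoxa2 (ENSMUSG00000014704, mm10 chromosome 6, 52162417 to 52164831, minus strand), which patterns the second pharyngeal arch and the outer ear in mouse embryos, reached 20, 103, 258, 246 and 286 counts across wt/wt replicates 1 to 5, while ko/ko replicates 1 to 4 held 57, 213, 218 and 208. Its 3 low libraries were ko/ko replicate 1 and wt/wt replicates 1 and 2, and the genotypes overlapped. Hoxa3, needed for the third arch derivatives thymus and parathyroid, had fewer reads, with 28, 11, 15, 11 and 11 counts in wt/wt and 3, 13, 17 and 6 in ko/ko, and 27.1% of its exon bases are shared with other rows of the table, 4 of them on the opposite strand. Reads from such partners cannot be told apart without a stated strand setting.

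The sharp drop lay between Hoxa2, at 4.87 CPM per kb, and Hoxa3, at 0.1035 CPM per kb. Past Hoxa3 the HoxA counts were lower still. Hoxa7 was present in every library but uneven, with 35 counts in wt/wt replicate 2 and 1 to 11 in the other 8 libraries. Of its exon bases, 20.4% are shared with Hoxaas3 on the opposite strand. Hoxaas3 was also highest in wt/wt replicate 2, at 21 counts against 6 to 13 elsewhere. Hoxa5 had at most 6 counts in a library, Hoxa9 and Hoxa10 at most 8 each, and Hoxa4, Hoxa6, Hoxa11 and Hoxa13 at most 3. Hoxa13, a gene of the distal limb and genital tubercle, had 5 counts in all 9 libraries together. Hoxa9 and Hoxa10 had their highest counts in ko/ko replicates 4 and 1 respectively, with 8 each.

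In HoxD, the transcribed block was Hoxd8 to Hoxd10, and both ends of the cluster were nearly empty. Hoxd10 (ENSMUSG00000050368, mm10 chromosome 2, 74691924 to 74695105, plus strand), a gene of the lumbar spinal cord and the limb in mouse embryos, had 154, 133, 46, 62 and 65 counts in wt/wt and 97, 29, 72 and 58 in ko/ko. Its 3 high libraries were the same 3 in which Hoxa2 was low. Hoxd9 (chromosome 2, 74697727 to 74700208, plus strand), a limb and lumbosacral gene, had 68, 119, 57, 52 and 108 counts in wt/wt and 35, 79, 54 and 49 in ko/ko. Hoxd8 (chromosome 2, 74704615 to 74707933, plus strand), the only HoxD gene of paralog group 8, had 29, 120, 71, 67 and 113 counts in wt/wt and 73, 122, 80 and 74 in ko/ko. Neither of these followed Hoxd10: wt/wt replicate 1, the highest library for Hoxd10, was the lowest for Hoxd8, and ko/ko replicate 1 was the lowest for Hoxd9.

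On the 3' side of this block, Hoxd1 had at most 9 counts in a library, Hoxd3 at most 6 and Hoxd4 at most 7. Of the exon bases of Hoxd3 and Hoxd4, 62.8% and 52.3% are shared with other rows, so their counts are uncertain. On the 5' side, Hoxd11 had at most 5 counts, Hoxd12 at most 2, and Hoxd13, which patterns the digits, at most 1. The step from Hoxd10 to Hoxd11 was from 2.19 to 0.0276 CPM per kb in the mean over libraries.

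HoxC was nearly silent apart from its last gene. Hoxc13 (ENSMUSG00000001655, mm10 chromosome 15, 102921103 to 102928814, plus strand), which drives hair keratin genes in the hair shaft, had 61, 91, 21, 1 and 14 counts in wt/wt and 8, 9, 48 and 10 in ko/ko. It was the most uneven of the leading Hox genes, from 0.0508 to 4.37 CPM. The hair keratin gene Krt35, named after its values were seen, had its highest value in the same library as Hoxc13, 52.7 CPM in wt/wt replicate 2. Krt35 stood at 9.82 CPM in ko/ko replicate 3, where Hoxc13 was highest among the ko/ko libraries at 2.24 CPM. The other libraries did not all pair in this way: wt/wt replicate 1 had 3.09 CPM of Hoxc13 with 3.40 CPM of Krt35, and wt/wt replicate 3 had 1.02 CPM of Hoxc13 with 16.5 CPM of Krt35. The summed level of 19 hair matrix and hair cortex markers was 339.1 CPM in wt/wt replicate 2 and 65.7 to 113.5 CPM in the other 8 libraries, and its part in the Hoxc13 values was not tested.

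Most counts of the remaining HoxC genes came from few libraries. Hoxc8, a thoracic gene, had 28 counts in ko/ko replicate 1, 6 in wt/wt replicate 1 and 0 to 3 in the other 7 libraries. Hoxc9, its neighbour, had 10 counts in ko/ko replicate 1, 8 in wt/wt replicate 1 and 0 to 3 elsewhere. Hoxc5 had 17 counts in ko/ko replicate 1 and 7 in ko/ko replicate 2, and 0 to 3 elsewhere. Thus ko/ko replicate 1 and, for Hoxc8 and Hoxc9, wt/wt replicate 1 carried trunk-level HoxC transcripts that the other libraries held at or near the counting limit. Hoxc6, Hoxc10, Hoxc11 and Hoxc12 had at most 4, 4, 5 and 1 counts.

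Hoxc4 had reads in ko/ko libraries only, at very low counts. No wt/wt library had a count (0 in all 5), while ko/ko replicates 1 to 4 held 1, 15, 5 and 3. A count of 0 allows up to 3 counts, so ko/ko replicates 1 and 4 do not stand apart from wt/wt. The share of genes with such an order when no filter is applied was not determined. The filter on low counts removed it from the main fit. In the fit with no filter it had an unadjusted p of 0.00131 and an edgeR adjusted p of 0.181 over 40310 genes, so it did not pass. This was the smallest unadjusted p of all Hox genes in that fit, and the gene was singled out after its values were seen.

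HoxB held the fewest counts of the 4 clusters. Hoxb2 (ENSMUSG00000075588, mm10 chromosome 11, 96350525 to 96354012, plus strand), a hindbrain gene of the facial motor neurons, had 9, 7, 4, 4 and 5 counts in wt/wt and 14, 15, 10 and 10 in ko/ko. Hoxb1, also a hindbrain gene, had at most 7 counts and Hoxb3 at most 4. Hoxb9 had 11 counts in ko/ko replicate 1 and 0 to 2 elsewhere. Hoxb6 had at most 5 counts, Hoxb4 and Hoxb5 at most 3, Hoxb8 at most 2, and Hoxb7 and Hoxb13 at most 1.

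**Figure D2:**
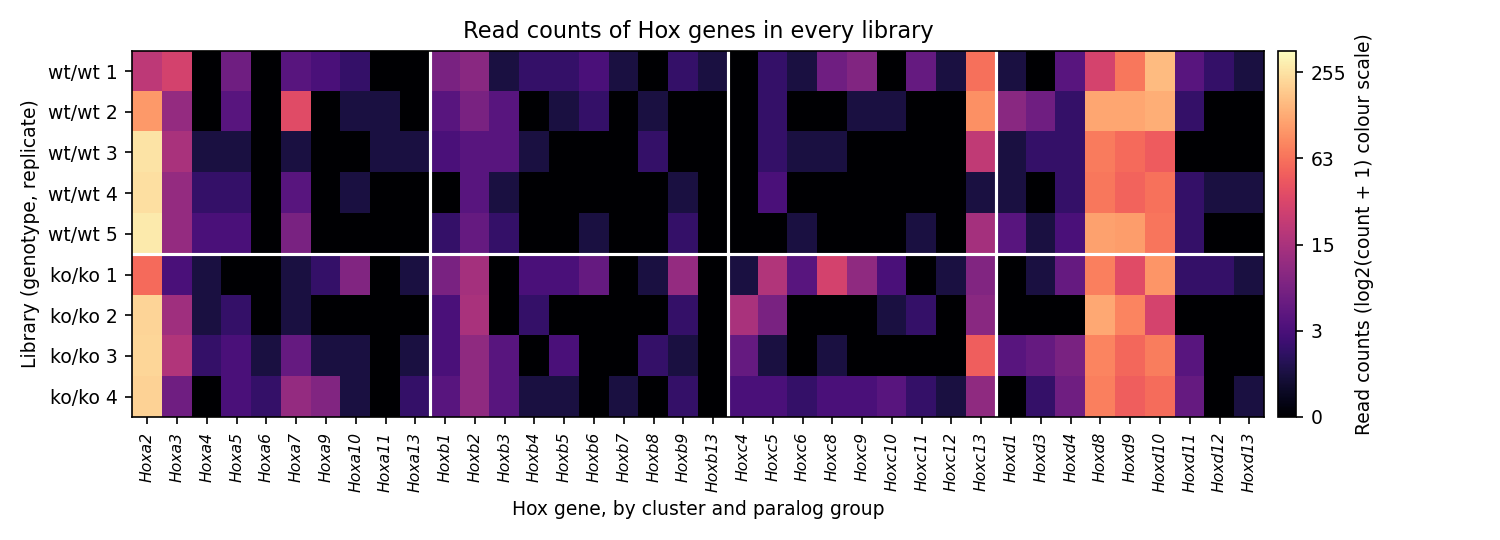
Read counts of Hox genes (columns, by cluster and paralog group) in the 9 libraries (rows, wt/wt above and ko/ko below the white line), on a log2(count + 1) colour scale. Bright columns include Hoxa2, Hoxc13 and Hoxd8 to Hoxd10, and ko/ko replicate 1 has extra signal at Hoxc5 (17 counts), Hoxc8 (28 counts) and Hoxc9 (10 counts).

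Split by their Hoxa2 values, the libraries showed 2 forms of Hox make-up that crossed the genotypes. Hoxa2 took 4.19% and 15.1% of the Hox counts in wt/wt replicates 1 and 2 and 13.5% in ko/ko replicate 1. In the remaining libraries its share was 43.5% to 49.5% for wt/wt and 37.4% to 40.0% for ko/ko. The ratio of Hoxa2 to Hoxd10 counts was 0.130, 0.774 and 0.588 in those 3 libraries and 3.03 to 7.34 in the other 6. Paralog groups 9 to 13 made up 65.4%, 51.2% and 42.9% of the Hox counts in the same 3 libraries and 21.9% to 31.2% in the other 6. A lower Hoxa2 count by itself raises every other share. In CPM, the sum of paralog groups 9 to 13 was 15.8, 16.7 and 10.4 against 5.52 to 8.81. Of this sum, Hoxd10 alone gave 7.81, 6.38 and 5.58 CPM against 1.31 to 3.37 CPM. The HoxD genes of groups 9 to 13 overlapped as a sum, at 11.6, 12.2 and 7.88 CPM against 4.88 to 8.03 CPM. The sum of all HoxD genes overlapped too, at 13.3, 18.8 and 12.4 CPM against 8.73 to 13.6 CPM. The total Hox level did not share this split, at 24.2, 32.7 and 24.3 CPM against 25.2 to 30.2 CPM. The same 3 libraries also carry the 3 lowest identifier numbers in the sample titles. What these numbers stand for is not stated, and their part in the split was not tested.

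These libraries were singled out by their Hoxa2 values, so their difference in Hoxa2, in the ratio and in the shares is a description. The order was not particular to Hox genes: of all 18435 genes tested, 7.15% had their 3 lowest and 6.58% their 3 highest values in the same 3 libraries. Among the 12 fibroblast markers, 8 had their 3 lowest values there, Col1a1 at 314, 394 and 519 CPM against 1052 to 2357 CPM in the other 6. None of the 12 basal keratinocyte markers had its 3 lowest or 3 highest values there, and their summed level was 2209, 4130 and 2821 CPM against 1706 to 3012 CPM. The summed level of 7 mural cell markers was also lowest there, at 170.7, 163.6 and 207.2 CPM against 250.6 to 426.2 CPM. Of these 7 markers, 1 had its 3 lowest values there. The part of fibroblast, mural or other cell content in the Hoxa2 and Hoxd10 values was not tested. Of 24 other positional transcription factors tested, 2 had their 3 lowest values there, a share near that of all genes: Tbx4, a hindlimb factor, and Pax9, a factor of the pharyngeal pouches and skeleton. Tbx4 was at 0.101, 0.144 and 0.115 CPM against 0.504 to 1.51 CPM, and Pax9 at 0.0507, 0.144 and 0.403 CPM against 1.13 to 1.96 CPM; both were picked after their values were seen.

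**Figure D3:**
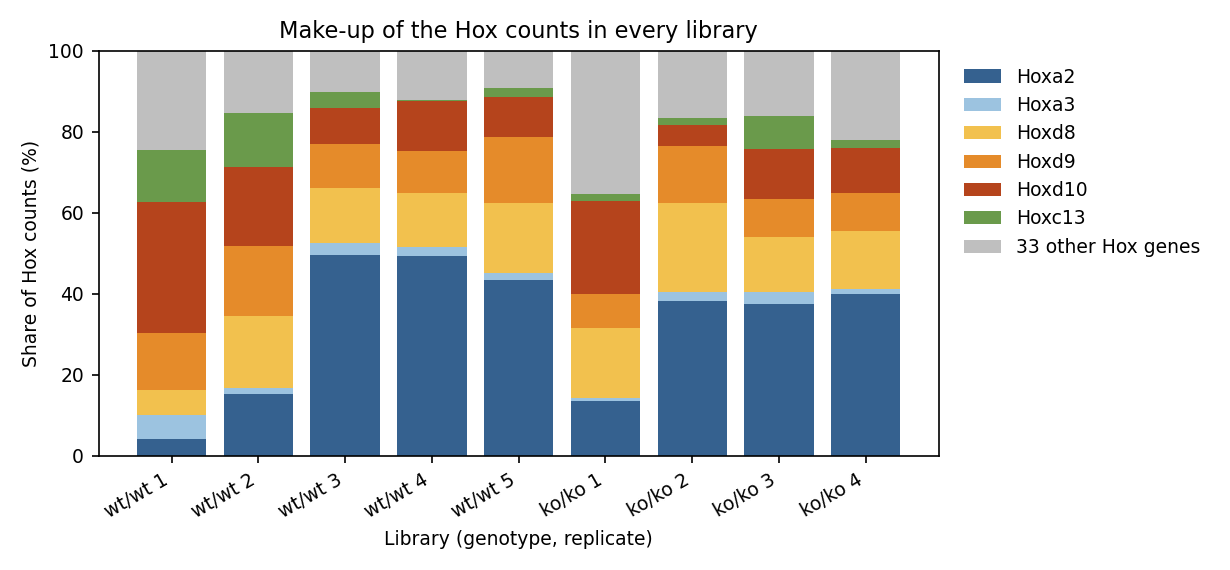
Share of each library's Hox counts (%) in Hoxa2, Hoxa3, Hoxd8, Hoxd9, Hoxd10, Hoxc13 and the other 33 Hox genes. The short Hoxa2 segments are those of ko/ko replicate 1 (13.5%) and wt/wt replicates 1 and 2 (4.19% and 15.1%), and ko/ko replicate 1 has the largest share in the other genes, at 35.3%.

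Between the Flg genotypes no Hox gene passed the test. Enough counts for the fit across all genes were present for 8 of the 39 Hox genes, among them Hoxa2, Hoxa3, Hoxb2, Hoxc13, Hoxd8, Hoxd9 and Hoxd10. Of these 8, edgeR called 0 at an adjusted p under 0.05, beside a background of 0.00542% over all 18435 genes, which is 1 gene, the adhesion molecule gene Clmp (log2 fold change 1.29, SE 0.15, adjusted p = 0.0418 by edgeR). DESeq2 gave an adjusted p for 6 of the 8 and called 0 (3.63% of all genes), and limma voom with quality weights called 0 of 8 (9.77% of all genes). At an unadjusted p under 0.05, 1 Hox gene was higher in ko/ko, beside 8.86% of all genes, and 0 were lower, beside 6.42%. The 8 genes had a median log2 fold change of -0.26 for ko/ko over wt/wt, 3 positive and 5 negative, against -0.03 over all genes tested. This median was 0.02 without the 3 libraries, -0.01 under limma voom and -0.05 with only genes of at least 1 CPM in 4 libraries, so its sign is not settled. The 31 genes outside the fit are described by their counts alone.

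Hoxb2 was the only tested Hox gene whose libraries did not overlap between genotypes, beside 6.28% of all genes. It averaged 0.614 ± 0.157 CPM (n = 4, SD) in ko/ko and 0.284 ± 0.112 CPM (n = 5, SD) in wt/wt. The log2 fold change of 1.10 (SE 0.47) did not pass by edgeR (adjusted p = 0.298) or by limma voom (adjusted p = 0.0937). Its unadjusted p stayed under 0.05 without wt/wt replicate 1 or 2, and rose above it without ko/ko replicate 1, 3 or 4. Without any 1 of the other 4 libraries Hoxb2 fell below the filter on low counts and was not tested. With ko/ko replicate 1 and wt/wt replicates 1 and 2 all left out, its log2 fold change was 1.38, which did not pass either. Of its exon bases, 27.3% are shared with the antisense gene Hoxb3os, which had 0.526 ± 0.159 CPM (n = 5, SD) over wt/wt and 0.402 ± 0.151 CPM (n = 4, SD) over ko/ko libraries. The summed level of 11 myeloid markers was 5.03 to 40.4 CPM in wt/wt and 8.68 to 239 CPM in ko/ko. Of these markers, 10 of 10 tested were higher at an unadjusted edgeR p under 0.05, beside 8.86% of all genes. The sum of 7 lymphatic endothelial markers was 414 to 894 CPM in wt/wt and 225 to 330 CPM in ko/ko. At that threshold 6 of the 7 were lower, beside 6.42% of all genes. The part of these cells in the Hoxb2 values was not tested.

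The leading genes gave no ordered difference. Hoxa2 had a mean of 8.83 ± 5.53 CPM (n = 5, SD) over wt/wt libraries, compared with 8.40 ± 3.43 CPM (n = 4, SD) over ko/ko libraries, a log2 fold change of -0.07 (SE 0.59, adjusted p = 0.965 by edgeR). Within each genotype the spread of Hoxa2 came from the 3 libraries named above: outside them it ran from 12.5 to 13.1 CPM in wt/wt and from 9.63 to 10.5 CPM in ko/ko. With those 3 libraries left out, the log2 fold change of Hoxa2 was -0.33 (adjusted p = 0.192 by edgeR), in a fit that called 2420 genes. The share of all genes without overlap between the genotypes in this subset was not determined. These ranges and the fold change are a description, since the libraries were chosen by their low Hoxa2 counts.

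Hoxd9 and Hoxd10 had lower means in ko/ko, within the spread of the libraries. Hoxd9 had a mean of 3.91 ± 1.36 CPM (n = 5, SD) over wt/wt libraries, compared with 2.65 ± 0.659 CPM (n = 4, SD) over ko/ko libraries, a log2 fold change of -0.56 (SE 0.33, adjusted p = 0.445 by edgeR). For Hoxd10 the log2 fold change was -0.45 (SE 0.48, adjusted p = 0.679 by edgeR), and for Hoxd8 it was 0.16 (SE 0.37, adjusted p = 0.867 by edgeR). Without the 3 libraries, the log2 fold change of Hoxd10 was -0.14 and that of Hoxd9 was -0.27.

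For Hoxa3 the log2 fold change was -0.67 (SE 0.55, adjusted p = 0.589 by edgeR), and it was -0.04 without wt/wt replicate 1 and ko/ko replicate 1. Hoxc13 had a log2 fold change of -1.01 (SE 0.92, adjusted p = 0.625 by edgeR), the largest SE of the genes named here, and its sign turned to 0.86 without the 3 libraries. Intervals of this width do not show that the genotypes are alike in these genes.

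**Figure D4:**
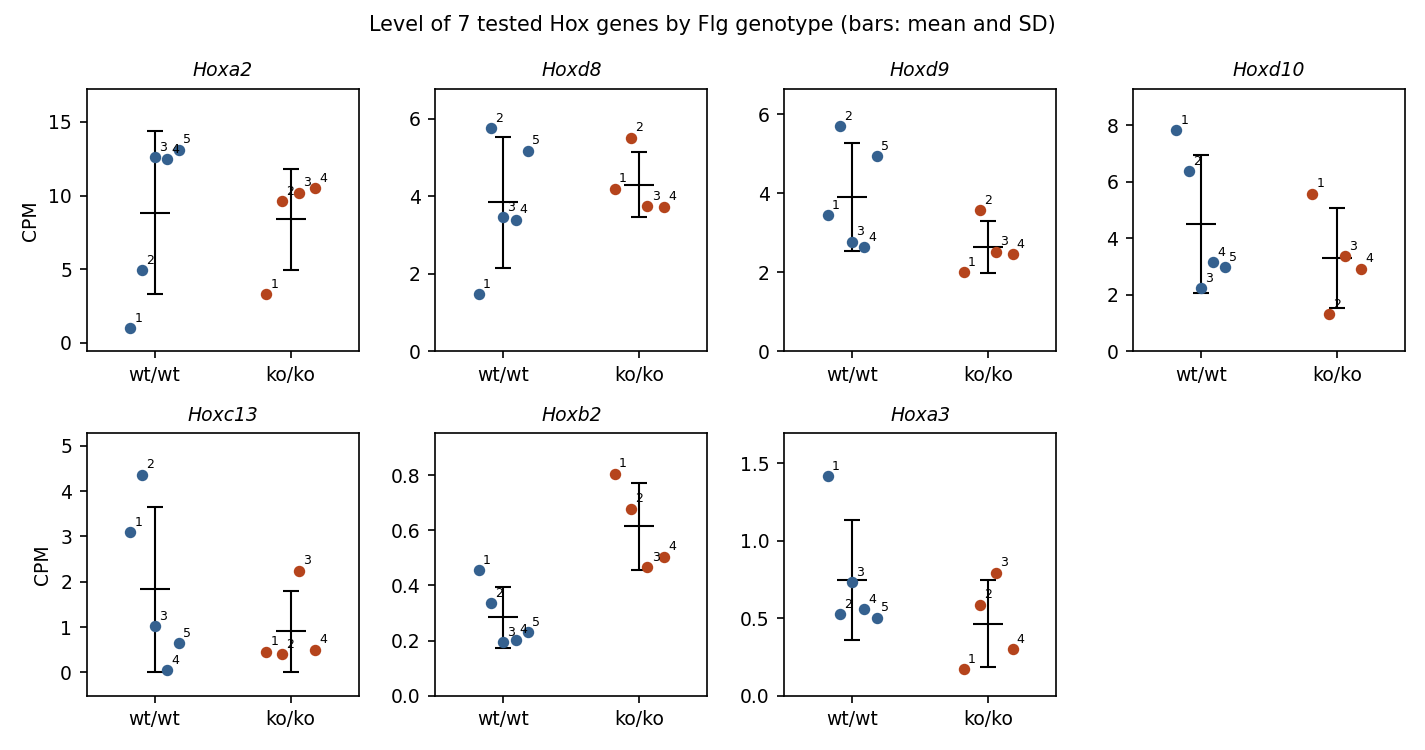
CPM of 7 of the 8 tested Hox genes by Flg genotype, 1 panel per gene with its own linear axis; points are libraries, numbered by replicate, and bars show the mean and SD of 5 wt/wt and 4 ko/ko libraries. The genotypes overlap in every panel except Hoxb2, where ko/ko spans 0.468 to 0.806 CPM and wt/wt 0.195 to 0.456 CPM.

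**Figure D5:**
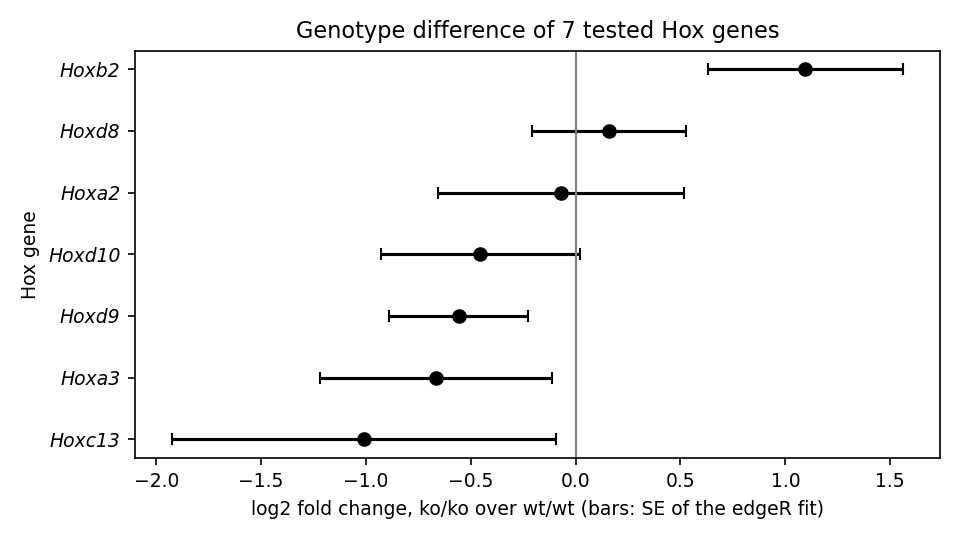
Log2 fold change of ko/ko over wt/wt for 7 of the 8 tested Hox genes, from the edgeR fit on 9 libraries, with bars of 1 SE on either side. The values run from -1.01 for Hoxc13 to 1.10 for Hoxb2, and no gene passed after adjustment.

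The partners of Hox proteins ranged widely in level, with Meis1 at 91.8 CPM and Pbx2 at 3.68 CPM in the mean over libraries. Pbx2 had higher values in ko/ko, which passed by DESeq2 and limma voom and not by edgeR. Of 9 tested genes of the TALE homeodomain family, 4 had an unadjusted p under 0.05 and higher values (8.86% of all genes) and 1 lower (6.42%). After adjustment edgeR called 0, DESeq2 2 and limma voom 3, all higher, beside 3.63% and 9.77% of all genes for the latter tools. Meis1 was the highest per length, at 8.72 CPM per kb, with a log2 fold change of 0.07 (SE 0.19). Of the 9 genes, 2 did not overlap between the genotypes, Pbx2 among them, beside 6.28% of all genes. Pbx2 was at 5.05 ± 1.17 CPM (n = 4, SD) in ko/ko against 2.59 ± 0.414 CPM (n = 5, SD) in wt/wt. Its log2 fold change was 0.96 (SE 0.26, adjusted p = 0.164 by edgeR, 0.0204 by DESeq2 and 0.0369 by limma voom). Meis2 had a log2 fold change of 0.42 (SE 0.16, adjusted p = 0.259 by edgeR and 0.0309 by limma voom). Upstream axial regulators were absent or nearly so: 0 of 6 Cdx, Gbx and Evx genes could be tested, and their summed level was at most 0.555 CPM, with Cdx1 the highest per length at 0.0256 CPM per kb.

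All 24 Polycomb genes listed were tested, and edgeR called 0 of them; 3 had an unadjusted p under 0.05 with higher (8.86% of all genes) and 3 with lower values (6.42%). DESeq2 called 1 higher (3.63% of all genes called), and limma voom 2 higher and 1 lower (9.77% called). Rnf2, the ubiquitin ligase of Polycomb complex 1, was the highest per length at 43.9 CPM per kb. The methyltransferase gene Ezh1 had a log2 fold change of -0.59 (SE 0.18, adjusted p = 0.187 by edgeR and 0.0409 by limma voom), and its complex partner Suz12 one of 0.63 (SE 0.21, adjusted p = 0.210 by edgeR). Among 12 Trithorax and H3K27 demethylase genes, edgeR called 0, 2 had an unadjusted p under 0.05 with higher values (8.86% of all genes) and 1 with lower values (6.42%). DESeq2 called 1 and limma voom 4 of the 12 higher, beside 3.63% and 9.77% of all genes called. Psip1, a chromatin tether of Mll complexes, had a log2 fold change of 0.93 (SE 0.20, adjusted p = 0.129 by edgeR, 0.00451 by DESeq2 and 0.0144 by limma voom) and Kmt2c, a methyltransferase, 0.61 (SE 0.24, adjusted p = 0.273 by edgeR and 0.0204 by limma voom). Rbbp5, a core subunit of the same complexes, had a log2 fold change of -0.52 (SE 0.18, adjusted p = 0.218 by edgeR), while the small subunit Dpy30 was the highest per length at 46.1 CPM per kb.

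The retinoic acid genes were led by an enzyme that degrades it. Cyp26a1 was the highest of the 18 genes per length, at 99.6 CPM per kb, with 174 ± 44.2 CPM (n = 5, SD) over wt/wt and 179.5 ± 44.2 CPM (n = 4, SD) over ko/ko libraries. edgeR called 0 of the 18, while 1 had an unadjusted p under 0.05 with higher values (8.86% of all genes) and 2 with lower values (6.42%), shares near the background. DESeq2 and limma voom called 1 each, lower. Aldh1a3, which makes retinoic acid, was at 9.58, 32.1, 6.98, 7.62 and 8.76 CPM in wt/wt and 1.73, 1.99, 7.48 and 2.83 CPM in ko/ko. Its log2 fold change of -1.88 (SE 0.58) did not pass in edgeR (adjusted p = 0.194) or limma voom (adjusted p = 0.0866) but did in DESeq2 (adjusted p = 0.0204). The high Aldh1a3 library, wt/wt replicate 2, was the one with the hair marker sum of 339.1 CPM, and the part of hair cells in it was not tested. The receptor genes Rarg and Rxrb had log2 fold changes of -0.60 (SE 0.19, adjusted p = 0.194 by edgeR and 0.0265 by limma voom) and 0.40 (SE 0.18, adjusted p = 0.321 by edgeR).

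Other transcription factors that mark position were a mixed set. Of 35 listed, 24 could be tested and edgeR called 0; 2 had an unadjusted p under 0.05 with higher and 1 with lower values, shares near the 8.86% and 6.42% of all genes. Dlx5, a factor of the pharyngeal arches and skeleton, was the highest per length at 62.0 CPM per kb, with 149 ± 36.0 CPM (n = 5, SD) over wt/wt and 129 ± 8.11 CPM (n = 4, SD) over ko/ko libraries. Twist1, a mesenchymal factor, and Tbx2 did not overlap between genotypes, 2 of the 24 tested beside 6.28% of all genes. Twist1 had a log2 fold change of 0.60 (SE 0.19, adjusted p = 0.205 by edgeR). Tbx2 had a log2 fold change of 0.79 (SE 0.31, adjusted p = 0.272 by edgeR) and Dlx3, which is also a hair matrix gene, one of -1.40 (SE 0.58, adjusted p = 0.289 by edgeR). The limb genes Tbx5, Pitx1, En1 and Lmx1b, named after their values were seen, averaged at most 0.0273 CPM per kb each, the value of En1.

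Rows around and between the Hox genes were also read. The clusters span 96.8 kb (HoxD) to 173.9 kb (HoxB) and hold 46 further rows, 19 of them with 0 counts in every library. Of 17 listed noncoding rows 5 could be tested and edgeR called 0. The highest per length was Hotairm1, an antisense RNA of HoxA, at 4.74 CPM per kb, with 5.46 ± 0.754 CPM (n = 5, SD) over wt/wt and 4.11 ± 1.49 CPM (n = 4, SD) over ko/ko libraries (log2 fold change -0.41, SE 0.28, adjusted p = 0.515 by edgeR). Hotair had 0 to 4 counts per library and Hottip 0 in all. Outside the clusters, edgeR called 0 of 7 tested flanking genes, and limma voom called 2, Atf7 and Jazf1 (9.77% of all genes called). Both had unadjusted edgeR p-values under 0.05 (8.86% of all genes higher), with log2 fold changes of 0.34 (SE 0.12, adjusted p = 0.243 by edgeR and 0.0478 by limma voom) and 0.38 (SE 0.15, adjusted p = 0.267 by edgeR and 0.0301 by limma voom).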

How the data were processed

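RNA from 9 sorted samples was sequenced, 5 wt/wt and 4 ko/ko. Each title holds its own identifier, taken here as a separate animal, so p-values measure the spread between these samples. Per the labels' protocols, cDNA of polyadenylated RNA was amplified (SMARTseq2) and tagmented; no molecular identifiers are named, so the limit for a count of 0 covers counting error only. The values are raw counts per gene that the authors deposited, with exon lengths. GSNAP, featureCounts 1.6.2 and mm10 are named in the submitters' processing notes, without roles; how strand, multi-mapping reads and duplicates were treated is not given in the sources used here. The table's name gives Ensembl release 87. Of 49763 rows, 92 name no gene (1.03e-05% of counts) and were left out. Symbols were matched by identifier to GENCODE M21; all 39 Hox positions were identical there.

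edgeR 4.0.16 in R 4.3.3 was run on all 9 libraries: filterByExpr, TMM factors, glmQLFit with robust=TRUE, two-sided quasi-likelihood F test, Benjamini-Hochberg adjustment over 18435 genes, threshold 0.05. CPM use TMM-adjusted library sizes, and each SE was derived from the fold change and its F statistic. Positive fold changes mean higher in ko/ko. Alternatives were other factors and filters, DESeq2 1.42.0, limma 3.58.1 voom with quality weights, robust=FALSE, offsets that take out a loess trend with exon length or with GC content (span 0.3), and each library left out. The test was checked on simulated data. The Hox genes, the other gene lists and the settings were chosen with earlier results of these data known. The rule was to name the 39 Hox genes; of each other list up to 4 members are named, by the highest CPM per kb, then the smallest unadjusted p, and genes beyond these are said to be picked after their values were seen. Replicate numbers only name the samples. A few genes that these rules select are not reported here.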

Additional observations from a re-analysis of the deposited data

Results flagged for a closer look

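Within each genotype, Hox genes tested or with at least 10 counts in a library, and the Hox sums, were searched for a single library set apart from the others by a gap larger than Dixon's 95% critical value. Of 36 groups of libraries, 10 had such a value. Chance marks about 1 in 20 independent groups, a rate that does not apply here: untested genes entered through their highest library, and the sums contain the genes. Low values were those of ko/ko replicate 1 for Hoxa2 (3.28 CPM, others 9.63 to 10.5) and for the HoxA sum (5.18 CPM, others 12.3 to 13.7). The same library was high for the HoxB sum (2.53 CPM, others 0.995 to 1.16), Hoxb9 (0.633 CPM, others 0.0468 to 0.101) and Hoxc8 (1.61 CPM, others 0 to 0.151).

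Wt/wt replicate 1 was high for Hoxa3 (1.42 CPM, others 0.504 to 0.732), Hoxc8 (0.304 CPM, others 0 to 0.0488) and Hoxc9 (0.406 CPM, others 0 to 0.048). Hoxa7, with exon bases shared with Hoxaas3, was high in wt/wt replicate 2 (1.68 CPM, others 0.0488 to 0.321). Hoxc13 was high in ko/ko replicate 3 (2.24 CPM, others 0.407 to 0.504). Hoxc8 was thus set apart in the first library of both genotypes, and Hoxc8 and Hoxc9 rest on 39 and 22 counts in all.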

How the results depend on the processing

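In every setting 0 Hox genes were called. The count of Hox genes with an unadjusted p under 0.05 was 0 under DESeq2, 0 under the stricter filter, which removed Hoxb2, and 0 to 1 with each library left out, where Hoxb2 was below the filter in 4 of 9 fits. It was 1 with no filter, where the gene was Hoxc4 and not Hoxb2. Genes called over all numbered 4 with no factors, 28 with no filter, 630 with DESeq2, 1801 with voom and 0 to 12 with each library left out, 12 without ko/ko replicate 4. They numbered 0 without both replicates 1, and 2420 without 3 libraries (ko/ko replicate 1, wt/wt replicates 1 and 2) chosen on their Hoxa2 values after seeing the data; the cause was not tested. The median log2 fold change of the tested Hox genes was 0.263 with no filter, where all 39 genes entered, and -0.623 to -0.119 with each library left out.

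Of 140 recomputed values of single Hox genes, 9 turned sign, none of them past the threshold. Hoxa2 was at 0.0648 with no factors and at -0.352 to 0.194 with a library left out. Hoxd8 was at -0.0365 without both replicates 1 and at -0.0449 to 0.35 with a library left out. Hoxc13 was at 0.813 under voom and 0.864 without the 3 libraries. A level cut of 2 CPM per kb left 2 Hox genes in place of 4. Cluster shares moved by less than their spread between libraries, but HoxA passed HoxD per kb (46.3% against 43.0%), without wt/wt replicate 1 (45.7%, 42.9%), wt/wt replicate 2 (45.1%, 42.6%) or ko/ko replicate 1 (45.7%, 43.4%), and without both replicates 1 (49.1%, 41.7%). No paired analysis was possible because the labels give no replicate numbers. Depth limits most Hox genes: 31 of 39 were too low to be tested.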
